A study of Mus musculus with 24 samples.

Results

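The genes described here are 9 that serve the carnitine shuttle or fatty acid breakdown in mitochondria. Slc25a20, Cpt1a, Cpt2 and Crat are the carnitine shuttle genes. Acadvl, Acadl and Acadm encode acyl-CoA dehydrogenases, and Hadha and Hadhb the trifunctional protein. These genes are 9 of the 47729 in the files. They were selected on their place in the pathway and on the measured values of Slc25a20, whose counts had been seen to differ between the groups below. All their values across those groups are therefore a description, and no p or call of a member across the groups is used here.

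The study sorted microglia, the resident macrophages of the retina, from 24 mouse retinas of 15 animals and sequenced the RNA of each retina. DBA/2J mice develop pigment dispersion, raised eye pressure and loss of retinal ganglion cells with age, and serve as a model of inherited glaucoma. The 12-month DBA/2J group (genotype Gpnmb-/- Tyrp1b-/-) had 10 retinas of 5 animals, graded from their labels as mild (3 retinas), moderate (4) or severe (3). The control group was DBA/2J Gpnmb+ at 12 months (Gpnmb+/+ Tyrp1b-/-), with 9 retinas of 5 animals, and the third group was DBA/2J at 6 months (Gpnmb-/- Tyrp1b-/-), described in its labels as early disease, with 1 retina from each of 5 animals. All 3 groups thus carry Tyrp1b-/-, no animal was treated, and the control differs from the 12-month group in its Gpnmb genotype. The 6-month group differs from Gpnmb+ in both age and genotype, which cannot be told apart. The sort took CD11b+ Ly6c- Fcrls+ cells, 100 to 600 per retina. In such pools, fewer cells that express a gene and less RNA per cell cannot be told apart.

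Long-chain fatty acids cross the inner mitochondrial membrane only as carnitine esters. Cpt1 enzymes on the outer membrane make the acylcarnitine, the carrier Slc25a20 exchanges it for free carnitine, and Cpt2 on the matrix side restores the acyl-CoA, which the dehydrogenases and the trifunctional protein then shorten in rounds of beta-oxidation. Microglia can draw energy from glucose or from fatty acids, and these genes are widely used as a readout of the second route.

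Slc25a20 (mouse build GRCm38, chromosome 9, 108662088 to 108684641, plus strand) and Cpt1a (chromosome 19, 3322334 to 3385733, plus strand) were the 2 members with the lowest median level per length, and the 2 whose levels differed most between groups. Hadha (chromosome 5, 30118304 to 30155162, minus strand) and Hadhb (chromosome 5, 30155248 to 30184593, plus strand) lie head to head, with 85 bases between their annotated ends. The bases before the RefSeq starts of these genes are shown because the values below turn on how the 4 genes differ in level. They are from RefSeq's promoter table for GRCm38.p6, which had an entry for 8 of the 9 members (none for Crat), and were read 5′ to 3′ on the plus strand. Only bases outside annotated exons are printed. The Cpt1a stretch lies before the RefSeq start at 3323301 and so inside the longer annotated gene given above. Capitals mark GC boxes, the letters GGGCGG on either strand, and in Cpt1a also the nuclear receptor recognition site AGGTCA, there on the other strand as TGACCT.
Slc25a20, chr9:108661886-108662087: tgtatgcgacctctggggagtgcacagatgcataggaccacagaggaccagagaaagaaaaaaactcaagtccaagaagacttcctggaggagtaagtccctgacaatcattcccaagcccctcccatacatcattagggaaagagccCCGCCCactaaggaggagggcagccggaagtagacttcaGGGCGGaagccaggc
Cpt1a, chr19:3323051-3323284: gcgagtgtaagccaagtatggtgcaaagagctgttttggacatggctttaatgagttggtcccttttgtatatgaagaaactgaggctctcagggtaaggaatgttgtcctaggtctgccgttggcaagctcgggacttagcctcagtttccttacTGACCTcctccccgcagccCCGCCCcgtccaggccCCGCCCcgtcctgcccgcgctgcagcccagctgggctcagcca
Hadha and Hadhb, chr5:30155163-30155247: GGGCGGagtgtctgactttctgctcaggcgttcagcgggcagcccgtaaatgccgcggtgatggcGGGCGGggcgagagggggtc

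Each of these 3 stretches held 2 GC boxes. The motif was found, on either strand, in the 300-base promoters of 6 of the 8 members and in 35.7% of 32851 promoters of that length. The windows of Hadha and Hadhb, both among the 6, overlap by 228 bases and so are not separate finds. The site AGGTCA was found in 3 of 8 (Cpt1a, Acadm and Acadvl) and in 16.3% of all promoters. The direct repeat AGGTCANAGGTCA, the form bound by PPAR and RXR receptors, holds 2 such sites. With up to 3 mismatches it was found in 2 of 8 members, Slc25a20 and Acadm, and in 24.6% of all promoters, and with up to 2 mismatches in Slc25a20 alone and in 3.86% of all. The Slc25a20 match starts 7 bases after the RefSeq start, on the plus strand, and is shown as the nearest match to that repeat among the members, with capitals for the letters that match.
Slc25a20 repeat, chr9:108662142-108662154: AGGTgAaAGGTCg

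The sequence CCAAT was found in 1 of 8 members (Cpt1a) and 37.4% of all promoters. TATAAA was found in 0 of 8 and 13.6%. The extended site TCAAGGTCA, with up to 1 mismatch, was found in 0 of 8 and 7.46%. These are matches of letters in one window around 1 start per gene, and no binding was measured here.

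The files give each gene an estimated count, and levels are given below in 3 ways. CPM per retina is a gene's count over its library's total, times 1e6. CPM per animal sums the eyes of an animal and scales the totals between animals by edgeR's TMM method. TPM is the deposited level per length, the only scale on which 1 gene is set against another. Library totals ranged from 1706745 to 20081047 counts in 12-month DBA/2J, from 977873 to 14845259 in Gpnmb+ and from 12043862 to 17992997 in 6-month DBA/2J. In the same order the retinas held counts for 10693 to 15037, 3466 to 14460 and 13809 to 16706 genes. The 5 retinas with fewer than 10000 such genes were all Gpnmb+ (animals 1 and 2, both eyes, and animal 3, right eye). The fitted differences of the members from Gpnmb+, apart from those of Slc25a20, are also given without them. Those fits hold only Gpnmb+ animals 3 (left eye), 4 and 5, and their values are given without an SE. The 18 microglia markers checked all had counts in each group, with a summed level of 28750 to 46280 CPM per animal in Gpnmb+, 43939 to 48343 in 6-month and 38423 to 54065 in 12-month DBA/2J. The 8 monocyte markers summed to 496 to 1421 CPM in 12-month DBA/2J against 116 to 514 in Gpnmb+ and 54.1 to 344 in 6-month DBA/2J. Only 5 of the 8 had counts in 12-month DBA/2J, with Ly6c2, Plac8 and Chil3 at 0. In Gpnmb+ 7 had counts (Chil3 at 0), and at 6 months 5 (S100a4, Ly6c2 and Chil3 at 0). The 16 rod markers summed to 693 to 3252 CPM (median 2500), 600 to 11736 (900) and 348 to 2694 (654) in the same order of groups, the highest animal being Gpnmb+. The part of either list in the results below was not tested. Gpnmb itself had 459 counts in 1 Gpnmb+ retina (animal 5, left) and 0 in the other 23, so its counts do not separate the genotypes.

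Per length, the median over the 24 retinas was highest for Hadhb (60.2 TPM), Hadha (56.5), Acadm (53.5), Crat (46.0) and Acadvl (42.1). Cpt2 (11.8 TPM) and Acadl (10.7) formed a middle pair, and Cpt1a (0.545) and Slc25a20 (0.13) came last. Within each of these 3 tiers the ranges over retinas overlapped widely, so neighbours in the order do not differ beyond their spread. Slc25a20 had no count in 11 of 24 retinas and Cpt1a in 10, against 6 each for Cpt2 and Acadl, 3 for Acadvl, 2 for Acadm, 1 each for Hadha and Hadhb, and 0 for Crat. In 6-month DBA/2J the lower tier was absent as such: the median of Slc25a20 was 14.7 TPM and that of Cpt1a 12.1 TPM, beside 17.5 TPM for Cpt2 and 13.5 TPM for Acadl.

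**Figure D1:**
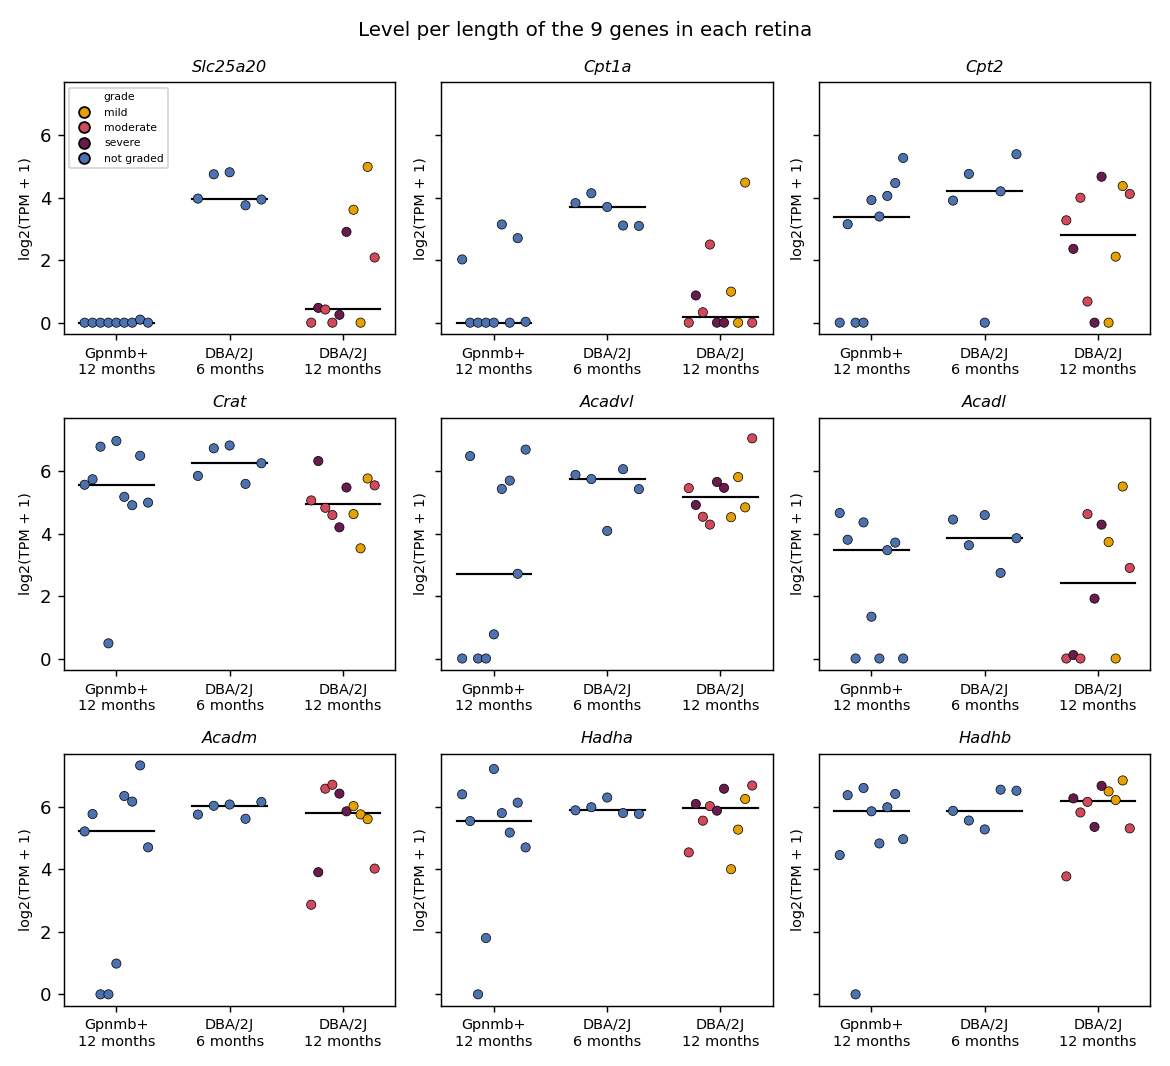
Level per length of each of the 9 genes, as log2(TPM + 1), with 1 point per retina and a line at the group median. Points of 12-month DBA/2J are coloured by grade. Slc25a20 and Cpt1a are near 0 in most 12-month retinas and high in all 5 retinas at 6 months. Hadha, Hadhb and Acadm have medians at similar heights in the 3 groups. The median of Crat was 29.9 TPM in 12-month DBA/2J, 46.3 in Gpnmb+ and 75.3 at 6 months. The single retinas near 0 for Hadha, Hadhb, Acadm and Crat are all Gpnmb+.

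Slc25a20, the carnitine-acylcarnitine translocase of the inner membrane, was detected in 5 of 5 retinas at 6 months, in 7 of 10 in 12-month DBA/2J and in 1 of 9 in Gpnmb+. The 6-month retinas of animals 1 to 5 had 17.2, 29.5, 41.3, 14.4 and 16.5 CPM. The 12-month DBA/2J retinas ran from 0 to 33.4 CPM with a median of 0.588. All 5 of the 6-month retinas were thus higher than 8 of the 10 retinas at 12 months, and the 2 groups overlapped through animals 4 and 5 at 12 months. The only Gpnmb+ counts were 2, in the right eye of animal 5 (0.143 CPM). The other 8 Gpnmb+ retinas had 0 counts, which allows up to 0.202 to 3.07 CPM at their depths, an upper limit of 3 counts that covers counting error only.

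Per animal, Slc25a20 was at 0.534, 0.302, 5.05, 12.3 and 15.9 CPM in 12-month DBA/2J (animals 1 to 5, mean 6.82 ± 7.03, SD, n = 5). The Gpnmb+ animals were at 0, 0, 0, 0 and 0.0659 CPM. The 6-month animals were at 15.7, 28.1, 38.8, 14.3 and 14.9 CPM (22.4 ± 10.8). As measured, all 5 animals of both DBA/2J groups lay above all 5 Gpnmb+ animals. In Gpnmb+ animal 2, however, 3 counts equal 0.601 CPM, so its 0 counts do not place it below animals 1 and 2 of 12-month DBA/2J. Those 2 animals rest on only 7 and 5 counts themselves, and the limit of 3 counts covers counting error only. It therefore does not settle the order of the other Gpnmb+ animals against them either. The spread within 12-month DBA/2J was as large as its mean. A lack of overlap of the measured values, on the higher side, was met by 1 of 9 members in 12-month DBA/2J against Gpnmb+ (background 0.832% of 12977 genes tested) and by 2 of 9, Slc25a20 and Cpt1a, in 6-month DBA/2J against Gpnmb+ (background 0.878%). Lower values with no overlap were met by 0 of 9 in both (0.285% and 0.239%), and between the ages 0 of 9 were higher (1.43%) or lower (1.03%) throughout. The members were chosen with these contrasts known, so nothing is read from those counts. Slc25a20 passed the filter on low counts through the 6-month animals, and did not pass it with only 12-month DBA/2J and Gpnmb+ in the fit.

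Pooled over retinas, Slc25a20 had 735 counts in 12-month DBA/2J, 2 in Gpnmb+ and 1693 in 6-month DBA/2J. Relative to the group totals this is a ratio of 293 between 12-month DBA/2J and Gpnmb+ (exact 95% interval 80.8 to 2425) and of 903 between 6-month DBA/2J and Gpnmb+ (250 to 7463). Of the 735 counts, 418 came from the right retina of animal 5 and 149 from the left retina of animal 3. The ratio of 293 thus rests largely on single retinas, while the 1693 counts at 6 months came from all 5 retinas (187 to 498 each). Both ratios are set against the 2 counts of 1 Gpnmb+ retina, and the gene was chosen on these counts. These intervals cover counting error only and not the spread between animals. Over only the retinas with at least 10000 genes, the ratios were 195 (53.9 to 1616) and 602 (166 to 4974). Those 4 Gpnmb+ retinas had 13364 to 14460 genes with a count, within the range of the DBA/2J retinas, and 1 of the 4 had Slc25a20 counts. Between 12 and 6 months of DBA/2J the pooled ratio was 0.325 (0.297 to 0.354), and the fitted difference between animals was a log2 fold change of -1.71 ± 1.14 (SE).

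**Figure D2:**
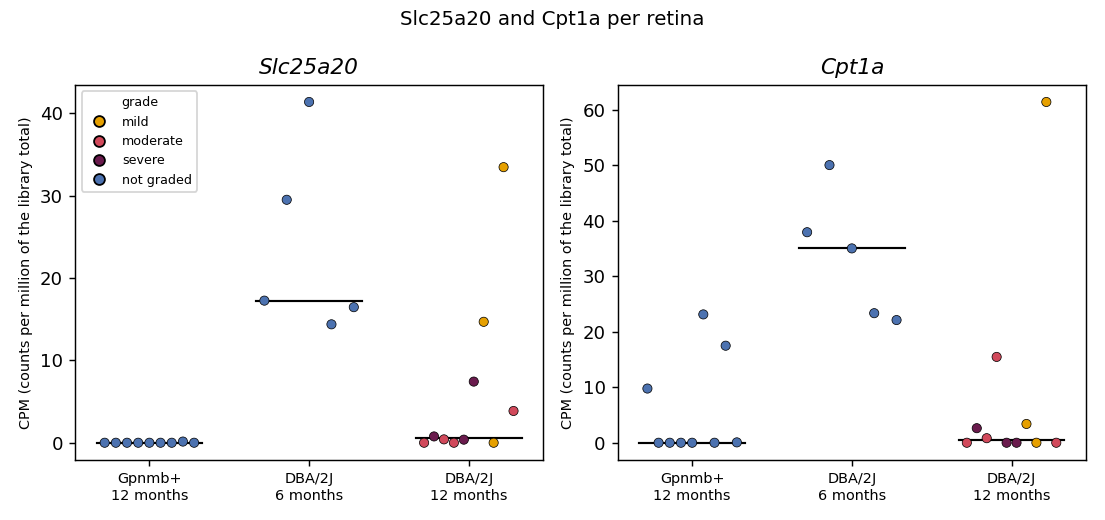
CPM of Slc25a20 (left) and Cpt1a (right) in each retina, on linear axes, with a line at the group median and 12-month DBA/2J coloured by grade. The highest 12-month DBA/2J point in both panels is the right retina of animal 5, graded mild, at 33.4 and 61.4 CPM.

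Cpt1a makes the acylcarnitine at the outer membrane and is the step held back by malonyl-CoA. It was detected in 5 of 5 retinas at 6 months, 5 of 10 in 12-month DBA/2J and 4 of 9 in Gpnmb+. The 6-month animals had 34.5, 47.7, 32.9, 23.2 and 20.1 CPM (mean 31.7 ± 10.8, SD, n = 5). The 12-month DBA/2J animals had 1.83, 6.39, 0, 2.85 and 25.5 CPM (7.31 ± 10.4), and the Gpnmb+ animals 6.09, 0, 13.8, 0 and 8.11 CPM (5.59 ± 5.83). Every 6-month animal was above every Gpnmb+ animal, 4 of 5 animals of 12-month DBA/2J were below every 6-month animal, and the 12-month groups overlapped each other.

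The fitted log2 fold change of Cpt1a was -2.11 ± 1.48 (SE) for 12-month against 6-month DBA/2J and 2.49 ± 1.5 for 6-month DBA/2J against Gpnmb+, which became 1.62 without the 5 Gpnmb+ retinas under 10000 genes. For 12-month DBA/2J against Gpnmb+ it was 0.38 ± 1.42, and it was -1.0 without animal 5 of the 12-month group and -0.49 without those 5 retinas. Animal 5 also set the mean of its group, which was 2.77 CPM without it, and animal 3 that of Gpnmb+, which was 3.55 CPM without it. Among the 4 Gpnmb+ retinas with at least 10000 genes, Cpt1a was detected in 3 and Slc25a20 in 1. Cpt1a ran from 0 to 23.1 CPM in these 4, the highest of them above the lowest 6-month retina (22.1 CPM). In the left eye of animal 5, however, Cpt1a had only 1 count, and the Slc25a20 detection was of 2 counts.

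Cpt2, the acyltransferase of the matrix side, was detected in 8 of 10 retinas of 12-month DBA/2J, 6 of 9 of Gpnmb+ and 4 of 5 at 6 months. Per animal it was at 7.93, 17.6, 25.7, 0.949 and 15.5 CPM in 12-month DBA/2J, at 2.54, 0, 8.58, 2.80 and 21.3 in Gpnmb+ and at 10.001, 23.9, 0, 19.6 and 22.1 at 6 months. The 3 ranges overlapped, with an animal at 0 in both the Gpnmb+ and the 6-month group. The fitted log2 fold change was 0.94 ± 1.35 (SE) for 12-month DBA/2J against Gpnmb+, 1.10 ± 1.35 for 6-month DBA/2J against Gpnmb+ and -0.16 ± 1.34 between the ages. Without the 5 retinas under 10000 genes the first became 0.12 and the second 0.28. The Gpnmb+ mean of 7.04 CPM became 3.48 without animal 5.

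Crat, the carnitine acetyltransferase, exchanges short acyl groups and so buffers acetyl-CoA rather than feeding long chains in. It was the 1 member with counts in all 24 retinas. Per animal it was at 127, 61.6, 62.6, 42.04 and 72.2 CPM in 12-month DBA/2J (mean 73.0 ± 31.9, SD, n = 5). In Gpnmb+ it was at 103, 30.8, 93.8, 60.7 and 92.0 CPM (76.2 ± 30.0), and at 6 months at 81.5, 172, 104, 75.7 and 107 CPM (108 ± 38.5). The groups overlapped, the highest animal being a 6-month one, and the fitted log2 fold changes were -0.06 ± 0.39 (SE) against Gpnmb+ and -0.57 ± 0.39 against 6 months. Crat (chromosome 2, 30400471 to 30415813, minus strand) shares exon bases with Dolpp1 and Gm16323 on the opposite strand, and no source used here says whether counting used the strand, so its reads and theirs may not be separated.

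The 3 dehydrogenases open each round of beta-oxidation, Acadvl for very long, Acadl for long and Acadm for medium chains. Acadvl (chromosome 11, 70010183 to 70015411, minus strand, with exon bases shared with Dvl2 on the opposite strand) was at 47.1, 21.0, 56.6, 37.2 and 72.6 CPM per animal in 12-month DBA/2J. The Gpnmb+ animals were at 52.4, 0, 13.7, 56.8 and 54.9 CPM and the 6-month animals at 56.1, 42.6, 14.9, 58.2 and 46.0. Of the 15 animals 10 lay between 37.2 and 58.2 CPM, with 1 Gpnmb+ animal at 0. In Gpnmb+ Acadvl was detected in 4 of 4 retinas with at least 10000 genes and in 2 of 5 with fewer, against 10 of 10 in 12-month DBA/2J.

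Acadl (chromosome 1, 66830839 to 66863277, minus strand) was at 0.0763, 12.1, 16.5, 14.6 and 24.1 CPM per animal in 12-month DBA/2J. It was at 32.2, 17.2, 0.785, 11.3 and 7.12 CPM in Gpnmb+ and at 22.4, 13.4, 23.3, 7.11 and 14.02 at 6 months. The ranges overlapped throughout, and both 12-month groups held 1 animal under 1 CPM. The Gpnmb+ mean of 13.7 CPM became 9.10 without animal 1, and the log2 fold change of 12-month DBA/2J against Gpnmb+, -0.02 ± 1.03 (SE), became 1.14 without the retinas under 10000 genes.

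Acadm (chromosome 3, 153922357 to 153944632, minus strand) was at 12.0, 111, 78.3, 53.6 and 26.5 CPM per animal in 12-month DBA/2J and at 80.6, 0, 58.1, 75.5 and 97.4 in Gpnmb+. At 6 months it was at 47.9, 61.9, 60.3, 63.0 and 64.7 CPM. The 6-month animals lay within the range of both 12-month groups and spread far less (SD 6.71 CPM, against 39.8 and 37.5, n = 5 each). Whether this follows from the fuller libraries at 6 months was not tested. Over the 3 dehydrogenases and 3 comparisons, no fitted log2 fold change was larger than its own standard error, the values running from -0.25 to 0.40.

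Hadha and Hadhb encode the alpha and beta subunits of the trifunctional protein, which carries out the later steps of each round on long chains. Hadha was at 58.2, 84.4, 92.7, 33.5 and 101 CPM per animal in 12-month DBA/2J, at 118, 0.601, 116, 41.5 and 55.0 in Gpnmb+ and at 72.8, 75.4, 82.7, 100 and 44.5 at 6 months. Hadhb was at 86.4, 88.1, 101, 142 and 88.1 CPM in 12-month DBA/2J, at 101, 89.3, 52.2, 82.2 and 81.9 in Gpnmb+ and at 70.7, 71.4, 44.2, 104 and 109 at 6 months. The groups overlapped for both subunits, apart from Gpnmb+ animal 2, whose Hadha stood near 0 while its Hadhb was the second highest of its group. The fitted log2 fold changes of 12-month DBA/2J against Gpnmb+ were 0.16 ± 0.70 (SE) for Hadha and 0.31 ± 0.32 for Hadhb, and against 6 months -0.02 ± 0.70 and 0.34 ± 0.32. Hadha shares exon bases with Garem2 on the opposite strand.

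**Figure D3:**
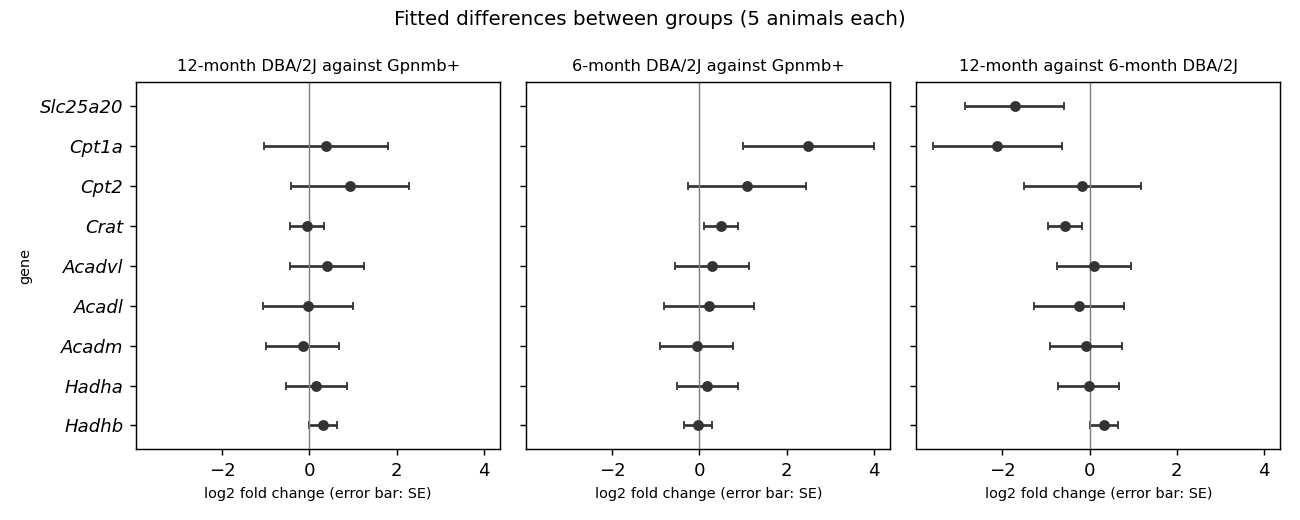
Fitted log2 fold change of each gene between the groups, with 5 animals per group and bars of 1 standard error. Slc25a20 is left out of the comparisons with Gpnmb+, where only 2 counts stand behind it. Between the ages the values of Slc25a20 and Cpt1a are -1.71 and -2.11, and the other 7 lie between -0.57 and 0.34.

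Over the whole table, edgeR's quasi-likelihood test called 0 of 12977 genes in each of the 3 comparisons at an adjusted p under 0.05 (smallest adjusted p 0.313 for 12-month DBA/2J against Gpnmb+, 0.252 between the ages and 0.198 for 6-month DBA/2J against Gpnmb+). That is a background of 0%. An unadjusted p under 0.05 was reached by 675 (5.2%), 474 (3.65%) and 489 (3.77%) genes in the same order. In 12-month DBA/2J against Gpnmb+ these were 2.75% of genes on the higher and 2.45% on the lower side, in 6-month DBA/2J against Gpnmb+ 2.2% and 1.57%, and between the ages 2.1% and 1.55%. DESeq2 called 226 genes, 1.54% of those it gave an adjusted p, in 12-month DBA/2J against Gpnmb+, 179 (1.16%) in 6-month DBA/2J against Gpnmb+ and 148 (0.957%) between the ages. These counts are over all genes, the members included. No member is read from them, since the members were chosen with the contrasts known.

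The median log2 fold change of the 9 genes was 0.31 in 12-month DBA/2J against Gpnmb+, 0.29 in 6-month DBA/2J against Gpnmb+ and -0.16 between the ages. The medians of all genes tested were 0.05, 0.03 and 0.01. Log2 fold changes were above 0 for 6, 7 and 2 of the 9 members, beside 52.4%, 51.3% and 50.6% of all genes. Between the ages the median of the 9 was 0.05 without animal 1 of 12-month DBA/2J. Without the 5 Gpnmb+ retinas under 10000 genes, which leaves Gpnmb+ animals 3, 4 and 5, the medians against Gpnmb+ became 0.16 at 12 and 0.41 at 6 months. At 12 months Acadm then had a log2 fold change of -0.66, Hadhb 0.61, Hadha 0.39, Crat 0.16 and Acadvl 0.08, and at 6 months -0.58, 0.27, 0.41, 0.72 and -0.03 in the same order, with 1.39 for Acadl. The first 2 comparisons share the Gpnmb+ animals, and the last shares a group with each. The summed level of the 9 genes was 188 to 558 CPM per retina (median 370) in 12-month DBA/2J, 144 to 614 (312) in Gpnmb+ and 427 to 564 (468) at 6 months.

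The number of members with a count was lowest in the sparsest libraries. In 12-month DBA/2J 6 to 9 members were detected per retina (median 8), in Gpnmb+ 1 to 9 (median 7) and at 6 months 8 to 9 (median 9). All 9 were seen in 2, 1 and 4 retinas. The retina with the fewest genes, 3466, held counts of 1 member, Crat, and the 6-month retinas, with 13809 genes or more, held at least 8. Between these ends the numbers did not run together: the Gpnmb+ retinas with 7 members held 9331 to 14460 genes, and in 12-month DBA/2J 9 members were seen at 12473 and 12664 genes and 8 at 14784 and 15037. The part of library complexity in the group differences was not tested beyond the values without the 5 sparse retinas.

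**Figure D4:**
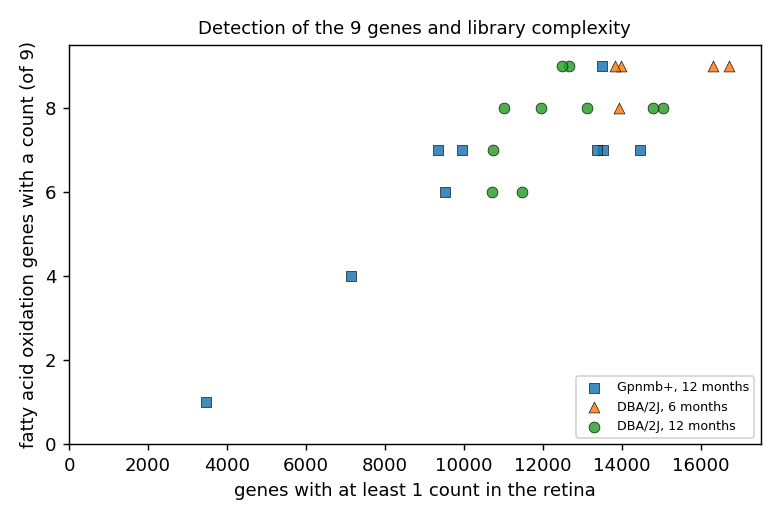
Number of the 9 genes with a count against the number of all genes with a count, 1 point per retina. The 5 Gpnmb+ retinas under 10000 genes held 1 to 7 members, the other 4 held 7 or 9, and the 6-month retinas held 8 or 9.

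Across the grades of 12-month DBA/2J, Slc25a20 was at 0, 14.7 and 33.4 CPM in the 3 mild retinas. The 4 moderate retinas ran from 0 to 3.85 CPM (median 0.205), and the 3 severe retinas were at 0.375, 0.765 and 7.42 CPM. The 2 highest retinas were mild, yet so was 1 of the 3 at 0, the left eye of animal 4, the shallowest library of the group. Its depth allows up to 1.76 CPM at 0 counts. Cpt1a was likewise highest in a mild retina (61.4 CPM, animal 5) and was at 0, 0 and 2.62 CPM in the severe ones, with 0 to 15.5 CPM in the moderate ones. The 3 mild retinas came from only 2 animals. In animal 5 the mild eye had 33.4 CPM of Slc25a20 and 61.4 of Cpt1a, and the moderate eye 3.85 and 0. In animal 1 the moderate eye had 0 CPM of both, and the severe eye 0.765 and 2.62. With 1 animal for each of these pairs of grades, grade cannot be told apart from the animal or from the difference between its eyes.

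Of the other members, Hadhb was at 117, 137 and 144 CPM in the mild retinas, 22.1 to 103 CPM in the moderate and 67.2 to 116 CPM in the severe ones. The lowest mild and the highest severe retina were next to each other, and 2 of the 3 mild retinas were of 1 animal. Acadvl was at 7.60 to 35.8 CPM in mild, 8.87 to 132 in moderate and 41.4 to 65.4 in severe retinas. With 3 or 4 retinas a grade, no difference is read from these ranges. Cpt2, Crat, Acadl, Acadm and Hadha overlapped across all 3 grades. Relative to Gpnmb+, the fitted log2 fold change of Hadhb was 0.80 ± 0.51 (SE) in mild, -0.55 ± 0.47 in moderate and 0.48 ± 0.52 in severe sums. These values follow no order of the grades.

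Right and left retinas of the same animal gave a comparison that played no part in choosing the genes, over 18 retinas of 9 animals. With the animal as a block, 7 of the 9 members passed the filter (Slc25a20 and Cpt1a did not), and edgeR's test called 0 of them at an adjusted p under 0.05, beside 0% of 9538 genes. Their adjusted p was 1.00 each. The unadjusted p was under 0.05 for 0 of the 7 members and 1.58% of all genes (0.189% higher and 1.39% lower in the right eye), and DESeq2 called 0 of the 9 members and 312 genes, 2.18%. The largest differences, right against left, were log2 fold changes of -2.29 ± 2.31 (SE) for Cpt2, -2.11 ± 1.64 for Acadvl and 1.22 ± 0.79 for Crat. The median over the 7 was -0.22, and over all genes -0.32, with 2 of 7 members and 33.9% of all genes above 0. The right retina held more Crat in 7 of 9 animals. At these standard errors only large differences between the eyes could have been seen.

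The spread between the 2 eyes of an animal shows how far a single retina can be read for the low members. Acadl had counts in only 1 eye of 6 of the 9 animals, Cpt1a in only 1 eye of 5 and Slc25a20 in only 1 eye of 4. Crat had counts in both eyes of 9 of 9 animals, and Acadm, Hadha and Hadhb in both eyes of 8. The median absolute difference between eyes, on the log2(CPM + 1) scale, was 0.73 for Acadm, 0.85 for Hadha, 1.12 for Crat, 1.35 for Acadvl and 1.41 for Hadhb. It was 2.19 for Cpt2, 2.37 for Acadl and 3.18 for Cpt1a, but 0.50 for Slc25a20, which was at 0 in both eyes of 3 animals. Acadl, Cpt1a and Slc25a20 were thus often counted in 1 eye and at 0 in the other.

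**Figure D5:**
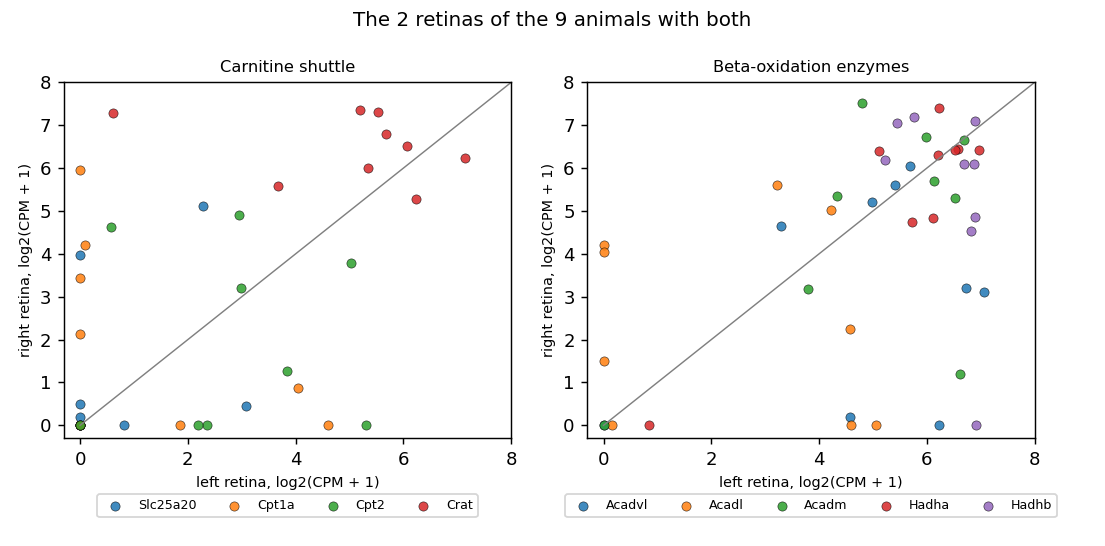
Right against left retina of the 9 animals with both, as log2(CPM + 1), for the 4 shuttle genes and the 5 enzymes, with the line of equality. Points on an axis are genes with a count in 1 eye only, as for Acadl in 6 animals and Cpt1a in 5.

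Around these 9 genes, 155 others were followed in lists of paralogs and fatty acid activation, other mitochondrial and peroxisomal oxidation, regulators, PPAR-responsive genes, lipid storage, fatty acid synthesis and ketone and acetyl-CoA use. Of these 123 passed the filter on low counts. edgeR's test called 0 of the 123 in each group comparison at an adjusted p under 0.05. An unadjusted p under 0.05 was reached by 0 on the higher and 6 on the lower side in 12-month DBA/2J against Gpnmb+, by 4 and 3 between the ages and by 0 and 0 in 6-month DBA/2J against Gpnmb+. Over all genes the higher and lower sides held 2.75% and 2.45%, 2.1% and 1.55%, and 2.2% and 1.57%. The median log2 fold changes over the 123 were 0.12, -0.03 and 0.06, close to those of all genes. DESeq2 called Cpt1b higher in both comparisons with Gpnmb+, from counts in 1 of 5 animals at 12 months, and Dbi, an acyl-CoA binding protein, higher between the ages.

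The other 25 enzymes of mitochondrial beta-oxidation all passed the filter, and 0 reached an unadjusted p under 0.05 in any of the 3 comparisons, with a median log2 fold change of 0.32 in 12-month DBA/2J against Gpnmb+. Hadh, the short-chain hydroxyacyl-CoA dehydrogenase, had a log2 fold change of 0.05 ± 1.36 (SE) there, Echs1, the short-chain enoyl-CoA hydratase, 0.48 ± 0.80, and Acaa2, a thiolase, 0.44 ± 1.33. Slc22a5, the plasma membrane carnitine transporter, had 0.57 ± 1.35. The muscle and brain forms of the outer membrane enzyme were scarce: Cpt1b averaged 2.44 CPM in 12-month DBA/2J, 2.21 CPM at 6 months and 0 in Gpnmb+, and Cpt1c was 0 in both other groups and averaged 0.152 CPM in 12-month DBA/2J.

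The list genes with an unadjusted p under 0.05 in 12-month DBA/2J against Gpnmb+ all had lower values in 12-month DBA/2J, none of them past the adjusted threshold. Crot, the peroxisomal carnitine octanoyltransferase, averaged 44.2 ± 35.6 CPM (SD, n = 5) against 92.5 ± 46.2, a log2 fold change of -1.07 ± 0.50 (SE; edgeR adjusted p = 0.951). Prkab1, a subunit of AMP-activated kinase, averaged 36.5 ± 14.5 against 106 ± 70.9 CPM (-1.54 ± 0.47, edgeR adjusted p = 0.567).

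Rxra, the partner receptor of the PPARs, averaged 8.08 ± 6.21 CPM against 28.5 ± 16.1 in Gpnmb+ (log2 fold change -1.82 ± 0.80, SE; edgeR adjusted p = 0.885). Txnip, Abhd5 and the carrier Slc25a38 had log2 fold changes of -0.68 ± 0.26, -2.66 ± 1.23 and -2.07 ± 0.82, with edgeR adjusted p-values of 0.705, 0.936 and 0.730. Of the PPAR receptors themselves, Ppard averaged 19.5 CPM in 12-month DBA/2J, 26.8 in Gpnmb+ and 36.1 at 6 months. Ppara and Pparg did not pass the filter, with Ppara at 0.452 CPM in 12-month DBA/2J and 0 in both other groups, and Pparg at 0.0121 CPM in Gpnmb+ and 0 in both others.

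Among the mitochondrial carriers other than Slc25a20, 37 of 47 passed the filter. edgeR's test called 0 of the 37 at an adjusted p under 0.05 in each comparison, and Slc25a38 was the 1 carrier with an unadjusted p under 0.05 in 12-month DBA/2J against Gpnmb+. Their median log2 fold change was 0.17 there, -0.17 between the ages and 0.02 in 6-month DBA/2J against Gpnmb+. DESeq2 called 0 carriers in the first 2 and Slc25a39 lower in the last.

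The genes whose level ran most like that of Slc25a20 over the 15 animals, by Spearman's rho of log2 CPM, were Ccdc134 (0.907), A130051J06Rik (0.892), Zfp78 (0.890), Gm43389 (0.884) and Aqr (0.875). These animals fall into the same 3 groups, 4 Gpnmb+ animals are tied at 0, and all 5 genes were on average highest at 6 months and lowest in Gpnmb+. Ccdc134 averaged 13.9 CPM in 12-month DBA/2J, 3.69 in Gpnmb+ and 27.7 at 6 months. Aqr averaged 25.3, 9.62 and 49.98 CPM. Among the other 8 members Cpt1a came nearest, with a rho of 0.739, rank 76 of 12976 genes, and the remaining 7 lay between -0.20 and 0.35.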

How the data were processed

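RNA of sorted microglia was sequenced with 1 library per retina (24). Per the file headers, the deposited tables give per gene an expected count (an estimated number of reads), TPM and an effective length in bases, a deposited length corrected by the authors' quantifier. Per the submitters' processing notes the tools were Salmon 1.4.0, R 4.0.3 and DESeq2 1.30.1 and the build mm10, with no step given for each. The aligner, the annotation and any filter were not given in the sources used here. How reads shared by several genes were split can move counts of overlapping or paralogous genes. A further deposited table with 24 columns of per-sample FPKM values was not used.

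Of 47729 gene IDs 47224 matched a symbol in the GRCm38 annotation. Counts were rounded to whole numbers in each retina and added up by animal, the replicate, since 2 eyes of 1 animal are not independent. P-values of the group comparisons therefore measure the spread between animals. Those of right against left, fitted to single retinas, measure the spread of the difference between eyes. edgeR 4.0.16 (R 4.3.3; quasi-likelihood F test, TMM, filterByExpr with a minimum count of 10 and total of 15) was fitted once to all 15 animals for the 3 group comparisons, to 17 sums of animal and grade for the grades, and to 18 retinas with the animal as a block for right against left. Grade sums of animals 1 and 5, which had eyes of different grades, were taken as independent. Tests were two-sided, with Benjamini-Hochberg adjustment across every gene tested. DESeq2 1.42.0 was an alternative. Zero counts allow up to 3 counts of a library total. Pooled ratios have exact 95% binomial intervals. Among 91 pairs of retinas of a group chi-square per degree of freedom was at least 81.8, so none was counted as a duplicate. The script was tested on simulated data.

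The members, lists and tests were chosen with earlier results of these data known. Named beyond the members were, per list, up to 3 genes with the smallest p among those with an unadjusted p under 0.05 in 12-month DBA/2J against Gpnmb+, a fixed set (Cpt1b, Cpt1c, Crot, Slc22a5, Ppara, Ppard, Pparg, Hadh, Echs1, Acaa2) and the 5 genes most like Slc25a20. The values of 1 gene named by this rule are not reported here. DESeq2 calls are named because they are few, after their values were seen. Marker lists of 12 cell types were summed per animal. Cones, inner neurons and ganglion cells, pigment cells, neutrophils, lymphocytes and red cells stayed at or under 24.0 CPM, Müller glia and astrocytes ran from 144 to 734 CPM, endothelium and pericytes from 0 to 110 and border macrophages from 1.36 to 233.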

Additional observations from a re-analysis of the deposited data

Results flagged for a closer look

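Of 27 sets of retinas (9 genes in 3 groups), 5 had 1 retina far above the others of its group, by the gap to its nearest neighbour as a share of the group's range. Chance alone would set about 1 in 20 groups apart in this way if the values were normally distributed. These CPM values hold many zeros, so that rate need not hold and the 5 are not set against it. The 2 eyes of an animal were counted as separate retinas here. Animal 5 of 12-month DBA/2J stood apart for 3 genes. Its right retina had 33.4 CPM of Slc25a20 and 61.4 CPM of Cpt1a, and its left retina 132 CPM of Acadvl, a dehydrogenase for very long chains. Animal 5 of Gpnmb+ stood apart for Slc25a20, at 0.143 CPM in the right retina from 2 counts, and for Cpt2, at 31.5 CPM in the left retina. With the other 8 retinas at 0, any count of Slc25a20 would stand apart, and 0.143 CPM is below the 0.202 to 3.07 CPM that 0 counts allow in them.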

How the results depend on the processing

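With DESeq2 in place of edgeR, 226 genes were called in 12-month DBA/2J against Gpnmb+, 148 between the ages, 179 in 6-month DBA/2J against Gpnmb+ and 312 in right against left, where edgeR called 0 in each. With no filter on low counts edgeR called 2 genes between the ages. Leaving out 1 animal at a time gave 0 to 1 genes in 12-month DBA/2J against Gpnmb+ (1 without animal 5 of 12-month DBA/2J) and 0 to 0 in the other comparisons. The cause of these differences was not tested. Slc25a20 counted as detected in 4 of 10 retinas of 12-month DBA/2J at a minimum of 1 CPM, and in 0 Gpnmb+ retinas at a minimum of 5 counts or of 1 CPM. The animal numbers are shared between groups as labels only: same-numbered animals deviated together with correlations of -0.046 to 0.088, and with the animal number as a replicate block edgeR called 0 genes in each group comparison. Right against left with no replicate block also gave 0. Over the alternatives and comparisons, 708 of 772 recomputed log2 fold changes of the members had the sign of the reported value, and 768 were counted as unmoved. Between groups this meant a shift under 1 SD of the gene's log2 CPM between animals of a group. In right against left it meant no call in the alternative. The measure is wide: Cpt1a in 12-month DBA/2J against Gpnmb+ moved from 0.38 to -1.0 and still counted as unmoved. Of the medians of the pathway lists 537 of 600 kept their sign. Slc25a20 between the ages stayed between -2.89 and -1.40 and Cpt1a between -3.50 and -1.79, while for 12-month DBA/2J against Gpnmb+ Cpt1a ran from -1.0 to 1.03. With only the 2 groups of 12-month DBA/2J and Gpnmb+ in the fit, Slc25a20 did not pass the filter and gave no value.
Of the low members, 11 of 24 retinas had no count of Slc25a20 and 10 none of Cpt1a, from 100 to 600 sorted cells each. Of the 4 Gpnmb+ retinas with at least 10000 genes 3 were among those without Slc25a20. In all, 2 libraries had under 20% of the median total of 11353005 counts.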
